A study of Mus musculus with 8 samples.

Results

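The Serpina3 cluster is a run of closely related serine protease inhibitor genes on mouse chromosome 12. It was measured here by the 9 probes that carry the names Serpina3c, Serpina3f, Serpina3g, Serpina3h, Serpina3i, Serpina3m and Serpina3n, out of 55681 probes on the array. These are 7 genes of 24217 with a symbol there. They were chosen by the measured level of Serpina3g, which stood higher with chrysotile and with crocidolite than with saline, so the Serpina3g values are given as a description with no test, and tests are given for the other 8 probes. The cells were mature adipocytes differentiated in culture from 3T3-L1, a mouse preadipocyte line. They received physiological saline (the control), chrysotile, crocidolite or amosite, with RNA taken after 72 h. Chrysotile is a serpentine asbestos and the other fibres are amphiboles. The fibre dose is 10 mg/cm2 per the labels, and whether that unit is right was not checked here. With 2 arrays in each of the 4 groups, n is small and limits the precision of every value. The labels do not say whether replicates were separate cultures, so the spread between them may be technical. All 8 samples came from the same cell line, with no genetic change named.

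Serpins inhibit proteases by offering a reactive loop as bait: the protease cuts it and is trapped in a covalent complex. Humans have a single SERPINA3 gene, for the secreted acute phase protein alpha-1-antichymotrypsin, whereas mice carry a family of duplicated copies whose reactive loops differ, so that members inhibit different proteases. Serpina3n is a secreted inhibitor of serine proteases such as granzyme B and leukocyte elastase and is induced in acute phase responses. Serpina3g, also called Spi2A, lacks a secretion signal, inhibits lysosomal cysteine cathepsins that leak into the cytosol, and is a known target of NF-kB.

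Since the genes are near copies of each other, the probes are shown before their values. Each line gives a 60-base probe, with its position on mouse build mm9 on the plus strand. The exon or untranslated part under each probe was not analysed here. The first pair is shown because these probes nearly match: the Serpina3h probe and the second Serpina3i probe have 51 of 57 overlapping bases in common (89.5%). The capitals mark the 22-base run that both contain.

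Serpina3h probe A_55_P2142222 (chr12:105491733-105491792): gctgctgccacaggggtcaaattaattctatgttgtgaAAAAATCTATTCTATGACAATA

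Serpina3i probe A_55_P2142232 (chr12:105506705-105506764): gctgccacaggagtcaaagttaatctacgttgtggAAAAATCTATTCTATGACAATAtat

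The remaining probes are shown for the genes whose values are described most fully. No capitals are used, because no other pair of probes in the cluster had a shared run longer than 7 bases. This covers the chosen names only. The Serpina3f probe A_55_P2142226 had 43 of 57 overlapping bases in common with a Serpina3a probe (75.4%, longest run 11). With the Serpina3b probe it had 36 of 54 in common (66.7%, longest run 14).

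Serpina3g probe A_51_P326191 (chr12:105480045-105480104): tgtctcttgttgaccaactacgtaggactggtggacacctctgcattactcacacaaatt

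Serpina3f probe A_55_P2104975 (chr12:105458989-105459048): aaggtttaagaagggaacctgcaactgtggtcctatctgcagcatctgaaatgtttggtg

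Serpina3f probe A_55_P2142226 (chr12:105492556-105492615): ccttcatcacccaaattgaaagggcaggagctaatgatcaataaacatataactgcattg

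Serpina3n probe A_51_P159453 (chr12:105651918-105651977): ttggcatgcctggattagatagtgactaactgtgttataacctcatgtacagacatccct

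The 2 probes named Serpina3f lie apart. With the Serpina3g probe as 0, the first lies at -21.06 kb and the second at 12.51 kb, next to the Serpina3h probe at 11.69 kb. For the second, the array design lists a Serpina3h transcript beside the Serpina3f transcript. Its gene name is therefore uncertain, and it is called the second Serpina3f probe below. Binding of a probe to the RNA of a related copy was not tested.

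Promoters are shown for Serpina3g, Serpina3f, Serpina3i and Serpina3n. For Serpina3f the link to a pattern is weak. Over the 8 arrays its first probe correlated with Serpina3g at 0.63, and the gene name of its second probe is uncertain. RefSeq (GRCm38.p6) gave windows from 250 bases before to 50 bases after a start for 5 of the 7 genes, and none was listed for Serpina3h and Serpina3m. The windows were searched on both strands for TTCNNNGAA, the palindrome that STAT factors bind, and it is in capitals below. The windows of Serpina3f, Serpina3g and Serpina3i aligned with 81.7% to 83.7% identical bases, and the closest pair was Serpina3c and Serpina3n, with 275 of 294 aligned bases identical (93.5%).

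Serpina3g (chr12:104235897-104236196, plus strand): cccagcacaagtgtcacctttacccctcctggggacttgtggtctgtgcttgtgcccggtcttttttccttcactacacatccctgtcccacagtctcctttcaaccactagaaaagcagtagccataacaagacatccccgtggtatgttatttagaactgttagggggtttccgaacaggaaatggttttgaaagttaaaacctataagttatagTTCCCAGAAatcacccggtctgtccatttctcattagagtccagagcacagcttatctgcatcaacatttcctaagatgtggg

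Serpina3f (chr12:104214294-104214593, plus strand): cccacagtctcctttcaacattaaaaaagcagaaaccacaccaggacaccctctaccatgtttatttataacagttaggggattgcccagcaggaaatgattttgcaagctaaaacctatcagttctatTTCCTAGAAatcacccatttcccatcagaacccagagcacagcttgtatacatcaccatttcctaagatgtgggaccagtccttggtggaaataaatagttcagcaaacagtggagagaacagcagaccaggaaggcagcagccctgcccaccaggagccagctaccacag

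Serpina3i (chr12:104262872-104263171, plus strand): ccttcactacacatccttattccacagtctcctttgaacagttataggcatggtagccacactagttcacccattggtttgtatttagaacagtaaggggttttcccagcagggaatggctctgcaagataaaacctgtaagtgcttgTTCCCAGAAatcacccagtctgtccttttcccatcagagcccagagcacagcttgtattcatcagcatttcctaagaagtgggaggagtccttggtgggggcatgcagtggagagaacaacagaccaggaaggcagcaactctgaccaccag

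Serpina3n (chr12:104406458-104406757, plus strand): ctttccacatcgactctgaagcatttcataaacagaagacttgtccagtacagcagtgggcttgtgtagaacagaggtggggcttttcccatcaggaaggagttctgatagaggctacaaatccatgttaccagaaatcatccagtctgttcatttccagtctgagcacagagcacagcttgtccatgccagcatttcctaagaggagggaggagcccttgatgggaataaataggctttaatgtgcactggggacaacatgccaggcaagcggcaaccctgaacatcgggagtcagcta

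The palindrome began 33 bases before the start in Serpina3g, 121 before it in Serpina3f and 102 before it in Serpina3i, and it was not in the Serpina3c or Serpina3n window. Counting a second, overlapping Serpina3f window, 4 of 6 windows of the cluster held it, against 8.3% of 32851 windows of the same length over all genes. The frame of a kappaB site was in the windows of Serpina3f, Serpina3g, Serpina3i and Serpina3n, and in 50.8% of all windows. The core of the interferon response element was in none of the members' windows and in 3.44% of all. No match to these frames overlapped the palindrome, and some kappaB matches on opposite strands overlapped each other. These are matches of letters in short windows that descend from common copies, and binding was not measured.

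Values below are log2 processed intensity minus the 75th percentile of that array, so that 0 is the level of the array's 75th percentile and a step of 1 is a doubling. Levels of different probes cannot be set against each other. A probe was kept for testing when 1 group or more had both arrays well above background by the scanner software's call, and this held for 33042 probes and for all 9 probes of the cluster. The second Serpina3i probe, A_55_P2142232, passed only through chrysotile and crocidolite, the groups where it was higher. Adipocyte markers were well above background on all arrays for 12 of 12 genes (among them Adipoq, Fabp4 and Plin1), and of 12 macrophage and leukocyte markers 7 were so, while Cx3cr1 and Lyz2 were not on any array.

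**Figure D1:**
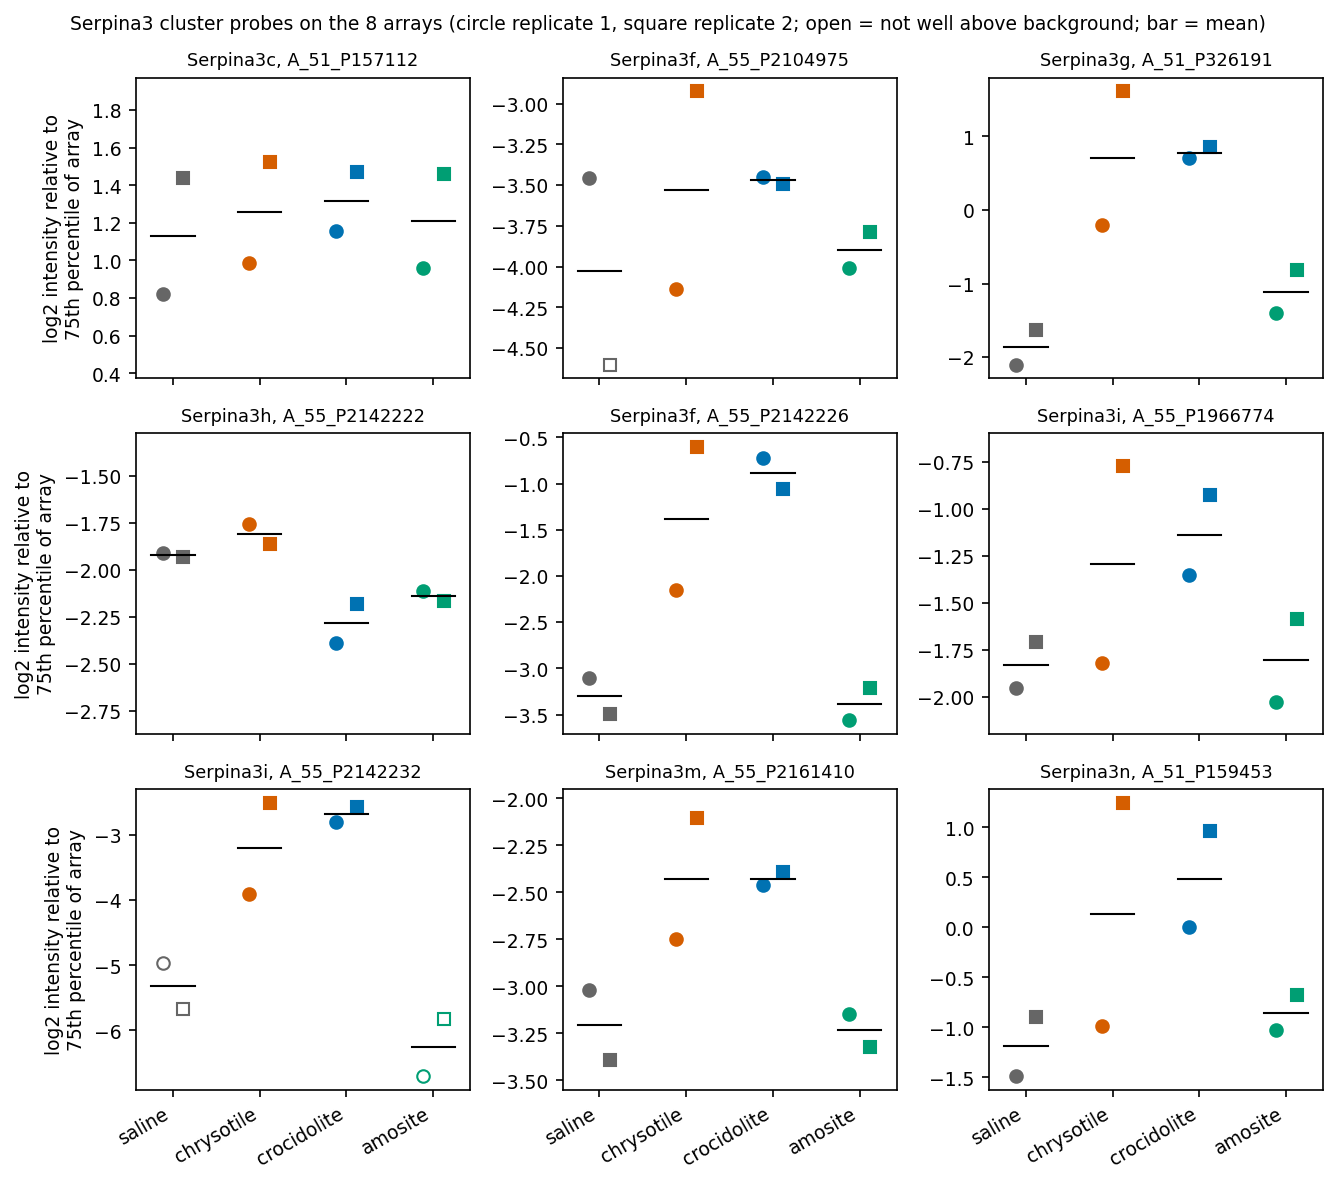
Log2 processed intensity relative to the 75th percentile of the array (vertical axis, 1 scale per panel) for the 9 probes named for the Serpina3 cluster, in the saline, chrysotile, crocidolite and amosite arrays. Points are single arrays, bars are means of 2, and open points were not well above background. The Serpina3g panel has all 4 chrysotile and crocidolite arrays above the saline and amosite arrays, and the Serpina3h and Serpina3c panels do not.

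Serpina3g, the intracellular inhibitor, was well above background on all 8 arrays. Its processed intensity was 90.3 and 110.2 with saline, 354 and 1352 with chrysotile, 740.4 and 798 with crocidolite, and 151 and 225 with amosite. After scaling, the log2 values were -2.10 and -1.63 with saline, -0.21 and 1.61 with chrysotile, 0.71 and 0.85 with crocidolite, and -1.41 and -0.82 with amosite. The saline arrays were lowest, the amosite arrays just above them, and all 4 chrysotile and crocidolite arrays lay above both groups without overlap. The crocidolite arrays fell between the widely spaced chrysotile arrays.

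These values correspond to means of -1.86 ± 0.34 (SD, n = 2) in the saline group, 0.70 ± 1.29 with chrysotile, 0.78 ± 0.10 with crocidolite and -1.11 ± 0.42 with amosite. Serpina3g was thus 5.93-fold higher with chrysotile than with saline and 6.25-fold higher with crocidolite, log2 differences of 2.57 and 2.64 (SE 0.57). With amosite it was 1.69-fold higher than saline, a log2 difference of 0.75. Crocidolite and chrysotile differed by a log2 of -0.08 (chrysotile minus crocidolite), less than the spread of the chrysotile arrays, so their order is not settled. The chrysotile value depends on the array: replicate 2 was 3.53-fold above replicate 1, and the log2 difference from saline was 3.48 without replicate 1 and 1.66 without replicate 2. In bulk RNA, a change in the number of cells of a type and a change in the RNA per cell cannot be told apart.

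Serpina3n, the secreted acute phase inhibitor, had log2 values of -1.49 and -0.89 with saline. They were -0.98 and 1.25 with chrysotile, 0.00 and 0.97 with crocidolite, and -1.03 and -0.68 with amosite. Both crocidolite arrays lay above all saline and amosite arrays. Of the chrysotile arrays, 1 lay above both crocidolite arrays and the other inside the saline range. Serpina3n was 3.19-fold higher with crocidolite than with saline (95% interval 0.95 to 10.73) and 2.50-fold higher with chrysotile (0.74 to 8.40). With amosite it was 1.26-fold higher (0.37 to 4.24). The limma adjusted p was 0.734 with crocidolite, 0.958 with chrysotile and 1.00 with amosite. The chrysotile replicates differed 4.70-fold, the widest replicate gap of any probe in the cluster, and the log2 difference of 1.32 became 2.44 without chrysotile replicate 1 and 0.21 without replicate 2.

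The second Serpina3f probe, A_55_P2142226, had log2 values of -3.10 and -3.49 with saline and of -3.56 and -3.21 with amosite. It stood at -2.15 and -0.60 with chrysotile and at -0.72 and -1.06 with crocidolite. The saline and amosite arrays overlapped, and every chrysotile and crocidolite array lay above them. The difference from saline was 5.31-fold with crocidolite (log2 2.41 ± 0.48 SE, 95% interval 2.35- to 11.99-fold) and 3.78-fold with chrysotile (log2 1.92, interval 1.68- to 8.54-fold). With amosite the log2 difference was -0.09 (interval 0.42- to 2.12-fold). In the limma fit the adjusted p was 0.596 with crocidolite and 0.930 with chrysotile, so neither difference passed 0.05 after adjustment over all probes. With normexp background correction in place of the scanner's, the log2 differences were 1.35 and 1.06. The chrysotile value was 2.69 without chrysotile replicate 1 and 1.14 without replicate 2.

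The first Serpina3f probe, A_55_P2104975, was well above background on 7 of 8 arrays, all but 1 saline array. Its log2 values were -3.45 and -4.60 with saline, -4.14 and -2.92 with chrysotile, -3.45 and -3.49 with crocidolite, and -4.01 and -3.79 with amosite. The saline range covered the amosite arrays and reached the level of the crocidolite arrays, and the chrysotile arrays lay on either side of these. The log2 difference from saline was 0.50 with chrysotile, 0.56 with crocidolite and 0.13 with amosite (SE 0.49). The pair of probes that carry this name thus gave different sizes, and the test between probes was not run. Its direction was not stable: the chrysotile difference was -0.11 without chrysotile replicate 2, -0.08 without saline replicate 2 and -0.01 with normexp. The crocidolite difference was -0.02 without saline replicate 2 and -0.03 with normexp.

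Serpina3i was also read by 2 probes. The first, A_55_P1966774, was well above background on all arrays, at -1.95 and -1.71 with saline, -1.82 and -0.77 with chrysotile, -1.35 and -0.92 with crocidolite, and -2.03 and -1.58 with amosite. The crocidolite arrays lay above all saline and amosite arrays, and 1 chrysotile array lay inside the saline range. The differences from saline were 1.61-fold with crocidolite (95% interval 0.87 to 2.99), 1.45-fold with chrysotile (0.78 to 2.68) and 1.02-fold with amosite (0.55 to 1.88). The adjusted p from limma was 0.773 with crocidolite and 0.959 with chrysotile.

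The second Serpina3i probe, A_55_P2142232, which nearly matches the Serpina3h probe, was not well above background on any saline or amosite array. It was well above background on all 4 chrysotile and crocidolite arrays, at -3.91 and -2.51 with chrysotile and -2.81 and -2.57 with crocidolite. Against saline raised to the lowest signal called above background on each array, it was at least 3.49-fold higher with crocidolite and at least 2.43-fold higher with chrysotile. Against amosite treated in the same way it was at least 4.25-fold and at least 2.96-fold higher. No exact difference or p is given for it against these groups.

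The Serpina3h probe, which the array design lists with a non-coding transcript, did not follow its look-alike. It also ran apart from the second Serpina3f probe, for which the design lists the same transcript. That probe stood 5.31-fold above saline with crocidolite and 3.78-fold with chrysotile. The log2 values of the Serpina3h probe were -1.91 and -1.93 with saline, -1.76 and -1.86 with chrysotile, -2.39 and -2.18 with crocidolite, and -2.11 and -2.16 with amosite. No pair of groups overlapped, in the order chrysotile, saline, amosite and crocidolite from high to low, and the steps between neighbouring groups were small. It was 0.78-fold the saline level with crocidolite (log2 -0.36 ± 0.13 SE, 95% interval 0.63- to 0.96-fold), 0.86-fold with amosite (0.70 to 1.06) and 1.08-fold with chrysotile (0.87 to 1.34). Chrysotile exceeded crocidolite 1.39-fold (interval 1.13 to 1.72), with an adjusted p of 1.00 in the limma fit. So the 2 probes with 89.5% of overlapping bases in common gave values that ran apart between crocidolite and saline.

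Serpina3m had log2 values of -3.02 and -3.39 with saline, -2.75 and -2.11 with chrysotile, -2.46 and -2.39 with crocidolite, and -3.15 and -3.32 with amosite. The chrysotile and crocidolite arrays all lay above the saline and amosite arrays, which overlapped. The difference from saline was 1.72-fold with each of chrysotile (95% interval 1.15 to 2.57) and crocidolite (1.14 to 2.57), and 0.98-fold with amosite (0.65 to 1.47). The adjusted p from limma was 0.947 with chrysotile and 0.660 with crocidolite. With normexp the log2 difference from saline was smaller, 0.27 with each of these fibres, against 0.78 in the scanner's values.

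Serpina3c, whose product is also called kallikrein-binding protein, had log2 values of 0.82 and 1.44 with saline, 0.99 and 1.53 with chrysotile, 1.16 and 1.47 with crocidolite, and 0.96 and 1.46 with amosite. Replicate 2 was the higher array in every group, and the 4 groups overlapped throughout. The differences from saline were 1.14-fold with crocidolite (95% interval 0.68 to 1.90), 1.09-fold with chrysotile (0.65 to 1.82) and 1.06-fold with amosite (0.63 to 1.76). With crocidolite this was the smallest difference in size among the 9 probes, and with chrysotile Serpina3h alone was nearer to saline.

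**Figure D2:**
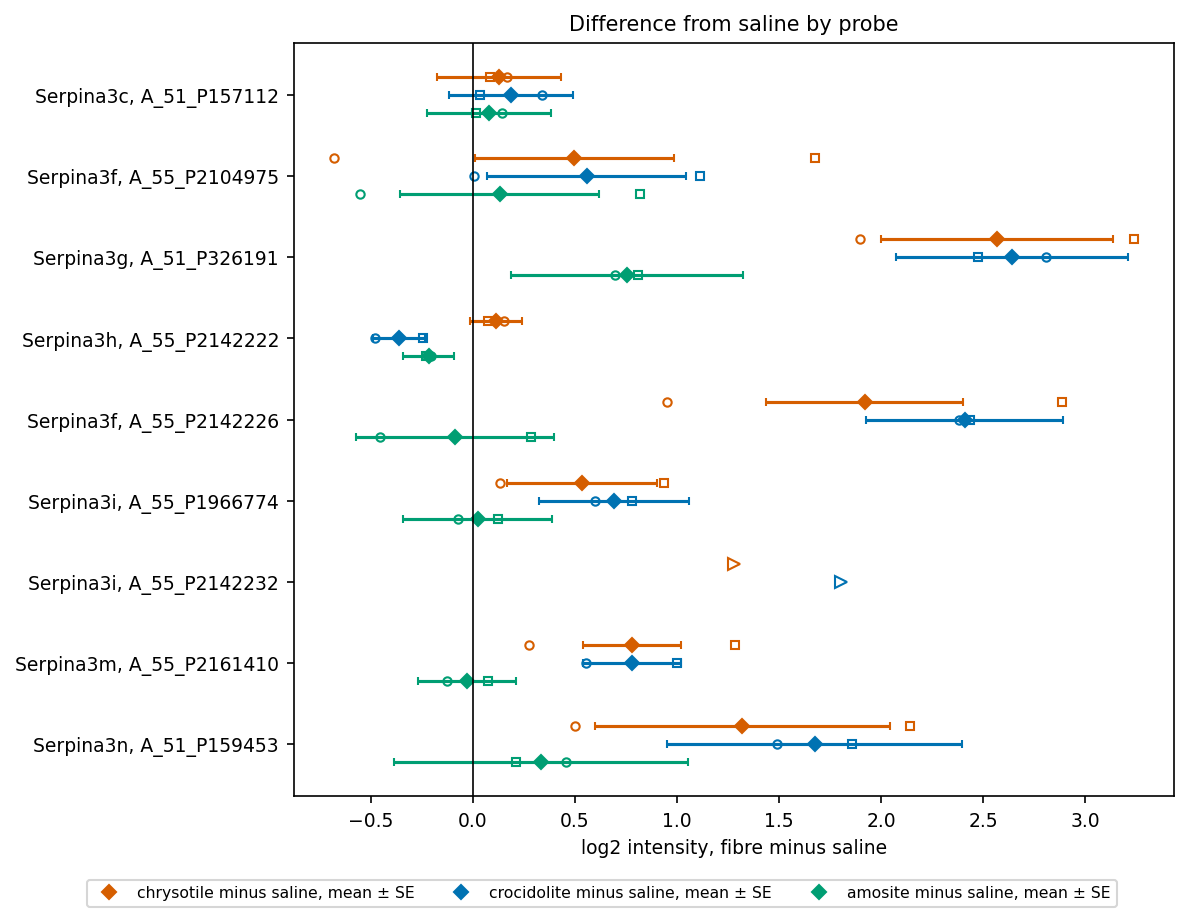
Log2 difference from saline (horizontal axis) for each probe (vertical axis). Diamonds are group differences with the SE of the fit (n = 2 arrays per group), open circles and squares the differences of the replicate 1 and the replicate 2 arrays, and open triangles the lower bounds of a probe whose saline group was not well above background. The amosite difference of the second Serpina3i probe is not drawn because both groups were below background. Serpina3g has no test, and its chrysotile and crocidolite differences are 2.57 and 2.64.

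Counted over the 8 probes other than Serpina3g, limma called 0 at an adjusted p of 0.05 in each of the 6 pairs of groups, and 0% of all 33042 probes. These 8 include the second Serpina3i probe, which had to differ since it passed the filter only where it was higher, so each count is also given over the 7 probes without it. Against saline with chrysotile, 3 of 8 and 2 of 7 had an unadjusted p under 0.05 (5.18% of all probes). The same held for 4 of 8 and 3 of 7 with crocidolite (6.8% of all). Those with crocidolite include Serpina3h, which was lower than saline (log2 -0.36), and the others were higher. With amosite it held for 0 of 8 (2.57% of all). The smallest adjusted p of the 7 was 0.930, 0.596 and 1.00 in turn. Nothing in the cluster was therefore called at this number of arrays.

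Without a call, the separation of arrays describes the cluster. With chrysotile, 4 of 8 probes and 3 of 7 had both arrays above both saline arrays, against 13.7% of all probes. At 2-fold or more, 2 of 8 and 1 of 7 did so, against 0.85% of all. With crocidolite, 5 of 8 and 4 of 7 were above without overlap (13.9% of all), and 3 of 8 and 2 of 7 at 2-fold or more (0.754% of all). With amosite, 0 of 8 were above without overlap (8.61% of all), 0 of 8 reached 2-fold (0.412% of all), and 2 of 8 were below without overlap (12.5% of all). These 2 were Serpina3h and the second Serpina3i probe, and the latter was below background in both groups. Serpina3h was also below saline without overlap with crocidolite, 1 of 8 (19.8% of all). None was below saline without overlap with chrysotile (0 of 8, 15.2% of all). The median log2 difference of the 7 was 0.53 with chrysotile, 0.69 with crocidolite and 0.02 with amosite, beside -0.01, -0.03 and -0.01 over all probes. The 3 comparisons share the saline arrays.

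Between fibres, chrysotile and crocidolite separated 1 of 8 probes upward without overlap, Serpina3h (13.5% of all probes). None was below without overlap (0 of 8, 10.6% of all) or above at 2-fold or more (0 of 8, 0.838% of all), and 1 of 8 had an unadjusted p under 0.05 (2.78% of all). The 95% intervals of that difference still reached from 0.23- to 2.63-fold for Serpina3n and from 0.32- to 1.61-fold for the second Serpina3f probe, chrysotile over crocidolite. Against amosite, 4 of 8 and 3 of 7 were above without overlap with chrysotile (17.1% of all), and 6 of 8 and 5 of 7 with crocidolite (16.5% of all), while 0 of 8 (16.1% of all) and 1 of 8 (Serpina3h, 20.6% of all) were below. At 2-fold or more there were 2 of 8 and 1 of 7 with chrysotile (0.781% of all), and 3 of 8 and 2 of 7 with crocidolite (0.626% of all). At an unadjusted p under 0.05 there were 4 of 8 and 3 of 7 with chrysotile (4.13% of all), and 3 of 8 and 2 of 7 with crocidolite (4.93% of all). The second Serpina3f probe was 4.02-fold higher with chrysotile than with amosite and 5.64-fold higher with crocidolite, and Serpina3m was 1.75-fold higher with each. For Serpina3n the values were 1.98-fold and 2.53-fold, with 95% intervals of 0.59 to 6.67 and 0.75 to 8.52.

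The replicates were unevenly spaced in the chrysotile group. Replicate 2 exceeded replicate 1 in 8 of 9 probes with chrysotile, with a median gap of 1.21 on the log2 scale. The same count was 7 of 9 with crocidolite (median gap 0.21), 7 of 9 with amosite (0.35) and 4 of 9 with saline (-0.03). The gap with chrysotile was 2.93-fold for the second Serpina3f probe and 2.65-fold for the second Serpina3i probe, and Serpina3h alone ran the other way, at 0.93-fold. Over all probes the SD of the replicate difference was 0.450 with chrysotile, 0.567 with saline, 0.413 with crocidolite and 0.387 with amosite.

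**Figure D3:**
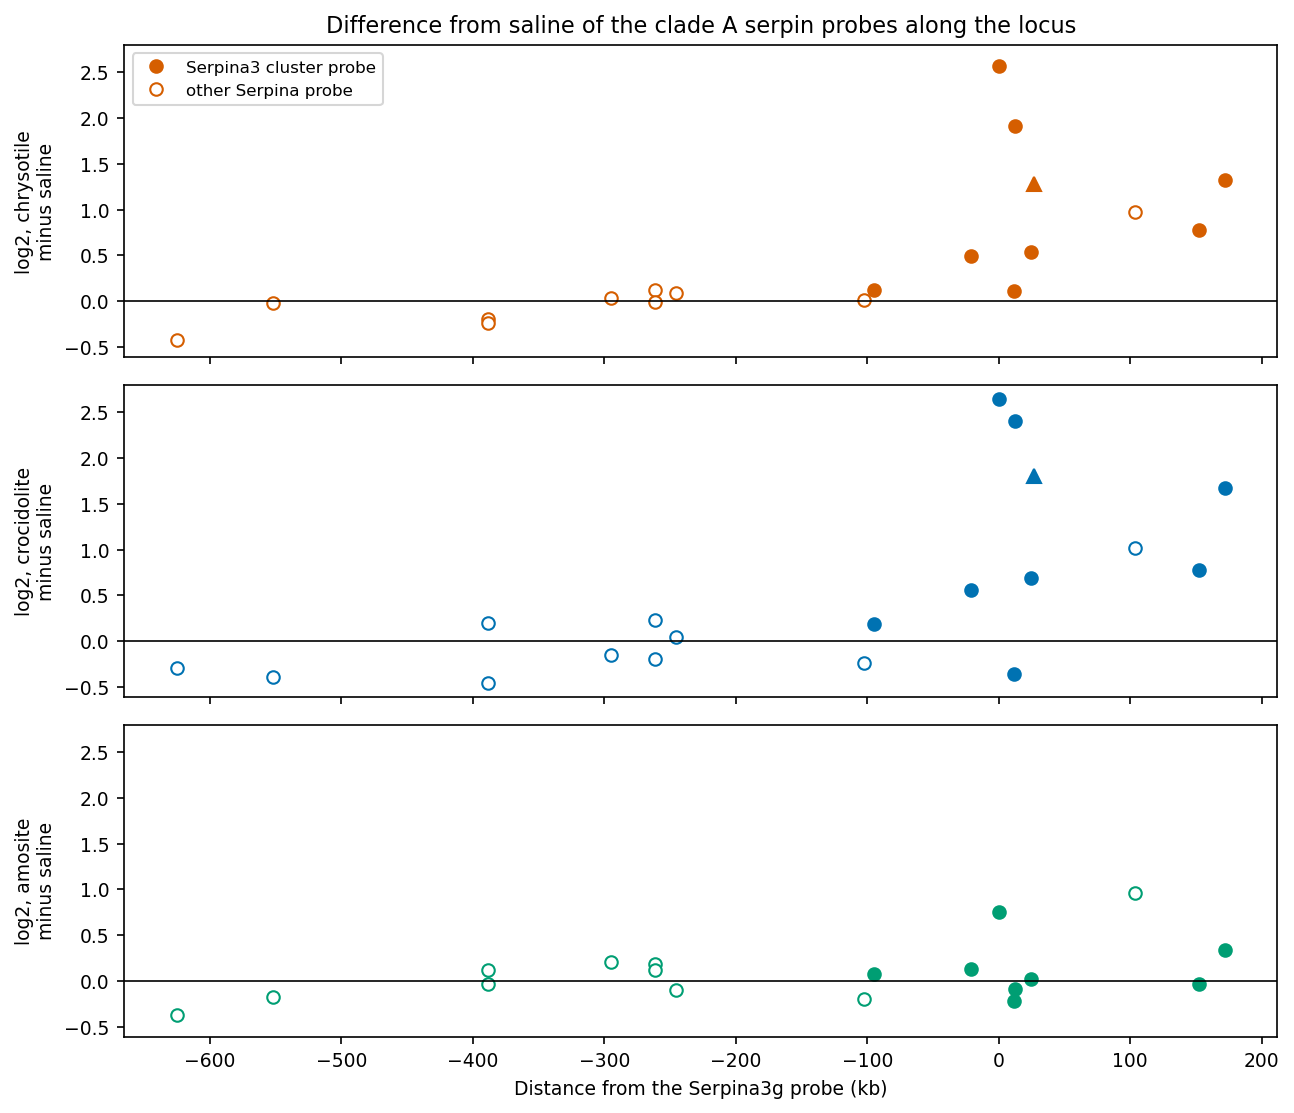
Log2 difference from saline (vertical axis) of the kept clade A serpin probes against their distance from the Serpina3g probe in kb (horizontal axis), for chrysotile, crocidolite and amosite in turn. Filled points are probes of the cluster and open points other Serpina genes, and triangles are lower bounds for the second Serpina3i probe, whose saline arrays were below background. Other values with a group below background are not drawn. Serpina3g lies at 2.57 and 2.64 with chrysotile and crocidolite, and the Serpina3h probe after it at 0.11 and -0.36.

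Along the chromosome, the 9 probes run from -94.69 kb (Serpina3c) to 171.87 kb (Serpina3n) with the Serpina3g probe as 0. The probes with the larger differences did not form an unbroken block. The Serpina3h probe, between Serpina3g and the second Serpina3f probe, stood at 0.11 with chrysotile and -0.36 with crocidolite. The break there rests on that 1 probe, and the array design lists its transcript for the second Serpina3f probe too. Whether the probes read the same RNA was not tested. Of the neighbours outside the chosen names, Serpina3b was at 0.01 with chrysotile, -0.24 with crocidolite and -0.20 with amosite (SE 0.26). Serpina3k, the copy known as contrapsin, was above background on 7 arrays and at 0.98, 1.02 and 0.97 (SE 0.82), with 1 saline array below background. The other clade A serpins of the locus, which include the alpha-1-antitrypsin copies, had 9 kept genes, of which limma called 0. An unadjusted p under 0.05 was found for 1 gene with chrysotile (5.18% of all probes), 0 with crocidolite (6.8%) and 1 with amosite (2.57%). It was Serpina1c both times, which passed the filter only through chrysotile and amosite, where it was higher. The filter thus favoured a difference, and these counts hold no other gene. Serpina1c was not well above background on any saline array and was at least 1.65-fold higher with chrysotile and at least 1.54-fold with amosite. The median log2 difference of the 9 genes was 0.01 with chrysotile, -0.14 with crocidolite and 0.12 with amosite, over all genes -0.01, -0.02 and -0.02. Of the serpins of other clades, 17 genes were kept and limma called 0. An unadjusted p under 0.05 was found for 2 higher and 1 lower gene with chrysotile (5.18% of all probes, either direction), 4 higher and 1 lower with crocidolite (6.8%) and 0 with amosite (2.57%). Serping1, the C1 inhibitor, was at 0.67 with chrysotile and 0.92 with crocidolite (SE 0.37).

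The pattern over the 8 arrays was compared between probes by Pearson correlation, as a description over points that share arrays and groups. Serpina3g correlated with the second Serpina3f probe at 0.94, with Serpina3n at 0.92, with Serpina3m at 0.90, with the Serpina3i probes at 0.89 and 0.87, with the first Serpina3f probe at 0.63 and with Serpina3c at 0.53. The Serpina3h probe stood apart, at -0.19 with Serpina3g and between -0.22 and -0.05 with the other probes. Among these is the second Serpina3f probe (-0.22), for which the array design also lists the Serpina3h transcript. Serpina3n was closest to the first Serpina3i probe (0.98), and the second Serpina3f probe to the second Serpina3i probe (0.97) and Serpina3m (0.96). The values of the second Serpina3i probe on the saline and amosite arrays, below background, enter these correlations. On chrysotile replicate 1, Serpina3n and the first Serpina3i probe lay inside the saline range, whereas the second Serpina3f, the second Serpina3i and the Serpina3m probe lay above it.

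**Figure D4:**
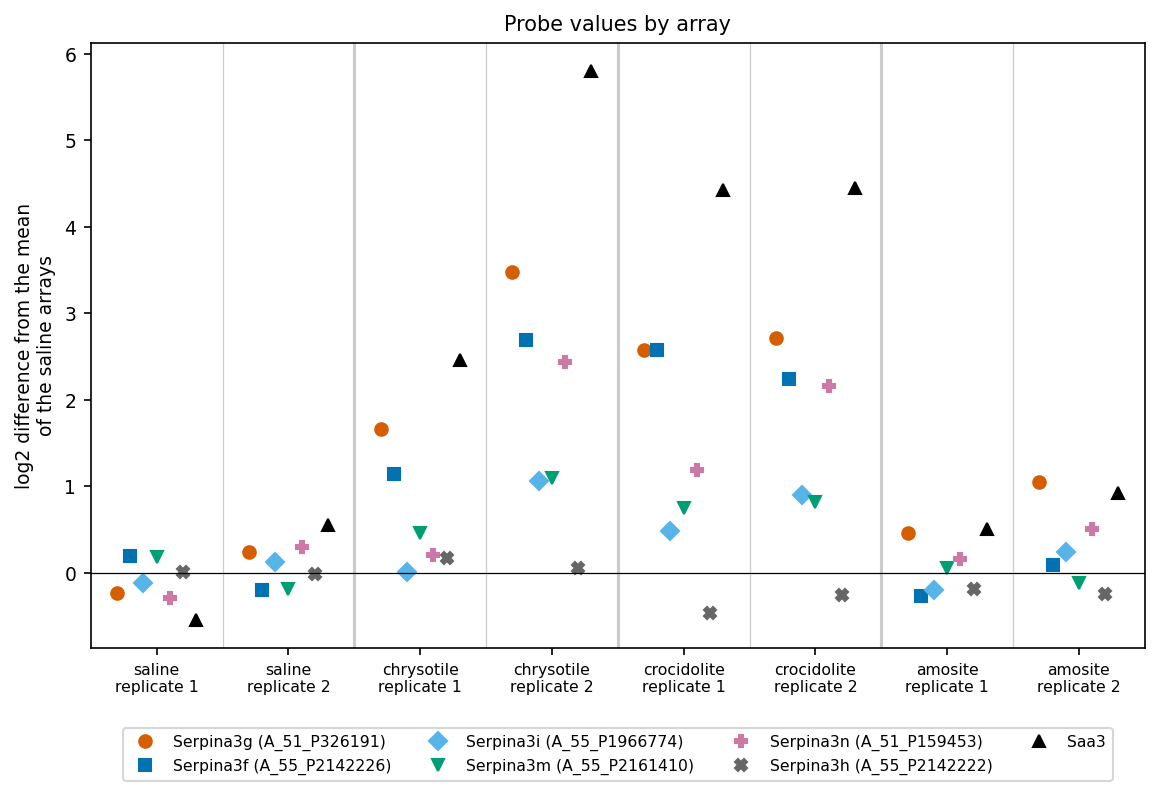
Log2 difference from the mean of the saline arrays (vertical axis) on each of the 8 arrays (horizontal axis) for 6 probes of the cluster and for Saa3. Each point is 1 array, and all points drawn for the cluster were well above background. Serpina3i is its first probe. Chrysotile replicate 2 is the highest array for Serpina3g and Saa3, and Serpina3h stays near 0.

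Of 21722 candidate probes with a symbol, the 8 genes whose pattern was most like Serpina3g were Saa3 (r = 0.991), Cdc42ep3 (0.989), Tmem176b (0.989), Plk3 (0.988), Ccl2 (0.983), Casp4 (0.981), Pde2a (0.980) and C4b (0.979). Saa3, an acute phase apolipoprotein made by adipocytes, differed from saline by a log2 of 4.13 with chrysotile, 4.44 with crocidolite and 0.71 with amosite. Ccl2, the monocyte chemokine, differed by 3.01, 2.57 and 0.62, and the complement gene C4b by 1.98, 2.46 and 0.27. Casp4, the inflammatory caspase that senses endotoxin in the cytosol, differed by 1.02, 1.18 and 0.17. These genes were picked for their likeness to Serpina3g over the same arrays. The genes most like Serpina3n were Fam110c (0.992), Atp10d (0.991), Prtn3 (0.990), Rasl11a (0.988), Plod3 (0.986), Clec10a (0.984), Grb14 (0.983) and A130040M12Rik (0.983), and none is among the 8 for Serpina3g. Prtn3 is proteinase 3, a leukocyte serine protease, and its log2 difference was 1.103 with chrysotile and 1.47 with crocidolite (SE 0.65).

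Other genes of the surrounding biology were read as lists, and limma called 0 genes in each list and comparison at an adjusted p of 0.05. Counts at an unadjusted p under 0.05 are to be read beside the share of all probes at that p, 5.18% with chrysotile, 6.8% with crocidolite and 2.57% with amosite. Of the proteases that serpins of this family may meet (15 kept genes), 4 had an unadjusted p under 0.05 with chrysotile, 5 with crocidolite and 1 with amosite, and the median was 0.32, 0.20 and 0.07. Each of these counts includes Plau, the urokinase, and with amosite it is the only gene counted. Plau was not well above background on any saline array and passed the filter only through the fibre groups, where it was higher. The filter thus favoured a difference, so Plau adds nothing to these counts. Plau was at least 2.54-fold higher with chrysotile, at least 1.95-fold with crocidolite and at least 1.21-fold with amosite. The cathepsin Ctsh stood at 0.80 and 0.67 (SE 0.25) and Ctsc, which activates leukocyte serine proteases, at 0.50 and 0.76 (SE 0.16). The lysosomal cathepsins Ctsl and Ctsb stood at 0.32 and 0.16 with chrysotile and at 0.39 and 0.18 with crocidolite. The serine proteases Elane and Ctsg, the latter a classic target of antichymotrypsin, stood at -0.14 and 0.02 with chrysotile and at -0.32 and -0.22 with crocidolite.

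Acute phase genes (20 kept) had a median of 0.66 with chrysotile, 0.74 with crocidolite and 0.09 with amosite, beside -0.01, -0.02 and -0.02 over all genes. An unadjusted p under 0.05 was found for 6 higher genes and 1 lower with chrysotile, 8 higher and 1 lower with crocidolite, and 0 with amosite. The 8 include Saa2, which passed the filter only through crocidolite, where it was higher, and so adds nothing to that count. Saa2 was not well above background on any saline array and was at least 1.99-fold higher with crocidolite. Lcn2, the siderophore-binding lipocalin, stood at 2.41 and 2.52 (SE 0.63), and Hp, haptoglobin, at 2.37 and 3.53 (SE 1.30). Orm3, an orosomucoid, ran the other way, at -0.80 and -1.05 (SE 0.30). In the NF-kB list (15 kept genes, 5 at an unadjusted p under 0.05 with each of chrysotile and crocidolite and 0 with amosite), the median was 0.16 and 0.25. Its members Tlr2 and Bcl3 were at 1.12 and 0.95 with chrysotile and at 1.16 and 1.33 with crocidolite, and Nfkbia, the main feedback inhibitor, was at 0.04 and 0.07.

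In the list of the IL-6 family and STAT3 (18 kept genes, 3 at an unadjusted p under 0.05 with chrysotile, 4 with crocidolite and 0 with amosite), the median was 0.16 with chrysotile, 0.20 with crocidolite and -0.02 with amosite. The oncostatin M receptor Osmr stood at 1.51 and 1.99 (SE 0.42), and the STAT3 feedback inhibitor Socs3 at 0.90 and 1.39 (SE 0.49). Cebpd, an acute phase transcription factor, stood at 0.71 and 0.99 (SE 0.24), and Stat3 itself at 0.50 and 0.66 (SE 0.20). The ligand gene Il6 stood at 0.59 and 0.66 (SE 0.52). Of the 18 genes, 13 stood above saline with each of chrysotile and crocidolite, and 6 with amosite. Il11ra1, a receptor gene of the list, ran the other way, at -0.39 and -0.41 with chrysotile and crocidolite (SE 0.19). Glucocorticoid response genes (10 kept, 0 at an unadjusted p under 0.05) had a median of -0.10 with chrysotile, -0.08 with crocidolite and -0.06 with amosite.

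Markers of cell types were measured beside these values. Adipocyte markers had a median difference of -0.15 with chrysotile, -0.17 with crocidolite and -0.07 with amosite. Preadipocyte and fibroblast markers (12 of 12 above background) had medians of 0.11, 0.16 and -0.02. They ran from Dlk1, at -0.23 and -0.38 with chrysotile and crocidolite (SE 0.46), to S100a4 at 1.25 and Acta2 at 1.17, the highest with these fibres in turn, and the collagen Col1a1 stood at -0.03 and -0.04 (SE 0.15). Macrophage and leukocyte markers (8 kept) had medians of -0.00, -0.03 and -0.02. Their summed level relative to the 75th percentile was 71.1 to 78.5 with saline, 69.6 to 78.7 with chrysotile, 65.9 to 72.8 with crocidolite and 66.6 to 70.6 with amosite. Itgam alone made up 80.8% to 84.1% of it, and without Itgam the sum was 13.5 to 13.6, 11.9 to 12.9, 12.6 to 12.9 and 10.6 to 12.3. Levels of different probes cannot be set against each other, so this share is one of probe signal and not of RNA. Mpeg1 stood at 0.96, 0.99 and -0.31, Cd14 at 0.70, 0.96 and 0.20 and Cd68 at 0.60, 0.41 and 0.13. Csf1r stood at -0.45, -0.37 and -0.46 and Cd3e at -0.23, -0.22 and -0.08, and Ptprc was above background on 4 arrays, none of them saline. Hepatocyte markers (4 kept) had medians of -0.10, -0.16 and -0.00. The part of these markers in the serpin values was not tested.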

How the data were processed

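RNA of the 8 samples was read on single-colour (Cy3) Agilent mouse arrays. The deposited spot values used here are the processed intensity, on a linear scale, which the authors' scanner software had corrected for background, per the file headers (Feature Extraction 10.7.1.1, probe positions on mm9) and the submitters' processing notes (10.7). The deposited value table holds the same intensity, with a largest difference of 0. The 8 arrays were on 1 slide with 1 scan date, so neither could serve as a block.

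Left out were control spots, the 99 to 183 spots of an array flagged as outliers, and 9 probes with no spot remaining on some array. Repeat spots were averaged. The 75th percentile of an array, over 55681 probes, was 340.1 to 453.4 intensity units, and 56.2% to 62.8% of probes were well above background. Values were log2 intensity minus the 75th percentile. All comparisons came from 1 limma fit to 33042 probes (lmFit and eBayes, R 4.3.3, limma 3.58.1, 4 residual degrees of freedom, prior 2.25), two-sided, with Benjamini-Hochberg adjustment over all of them and a threshold of 0.05. A bound ("at least") sets a group below background to the lowest signal called above background on each array, or to its own value where higher, and has no error range. The script was tested on simulated data.

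Members and lists were chosen with earlier results of these data known. Named genes were every member probe, the 8 genes most like Serpina3g and Serpina3n, and up to 4 members of each list with the largest differences. Further genes were named outside this rule: Serpina3b, Serpina1c, Saa2, the list genes outside the largest 4, Serping1, Serpinh1, the Serpinb6 genes and the marker genes, all added after their values were seen. The closing section gives the effect of other background correction, scaling, filters, prior, block and left-out arrays. Values of 1 list and 1 serpin of another clade are not reported here.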

Additional observations from a re-analysis of the deposited data

How the results depend on the processing

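No member of the cluster other than Serpina3g was called under any alternative run for the 6 comparisons, and the count of calls among these 8 probes stayed at 0. Over all probes, quantile normalization gave 2 calls with chrysotile, 2 with crocidolite and 2 with amosite against saline, and median centring gave 1 with crocidolite and 1 with amosite. The other scalings, filters and priors, the value table and the fits of 2 groups alone stayed at 0. With each array left out in turn the count ran from 0 to 29 for chrysotile, 0 to 39 for crocidolite and 0 to 41 for amosite against saline, the highest each time without saline replicate 2. It ran from 0 to 1 between chrysotile and crocidolite and between chrysotile and amosite, and was 0 between crocidolite and amosite. The cause was not tested. With the brightest probe per gene, and with probes above background on all arrays only, fewer member probes were tested.

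The deviations of arrays with the same replicate number correlated at 0.25 to 0.44 over the 6 pairs of groups, but the labels do not say what a number stands for. With the replicate number as a block the member count was 0 in all 6 comparisons, with a smallest adjusted p of 0.489 for chrysotile, 0.325 for crocidolite and 1.00 for amosite against saline. At an unadjusted p under 0.05 it had 4, 6 and 0 of 8 probes. These counts take either direction, and the 8 include the second Serpina3i probe. The share of all probes in the fit with the block is not given here, so nothing is read from these counts.

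Of 840 values of tested members under the alternatives, 797 kept the direction and none was called. For Serpina3g, which has no test, 102 of 108 values moved by less than the spread between replicates and 6 by more, the latter in fits without a chrysotile array. Median centring moved the median of all probes by a log2 of 0.157 for crocidolite against saline, -0.125 for chrysotile against crocidolite and 0.108 for crocidolite against amosite. Dim probes are limited by their background: normexp, which adds an offset of 50, gave the smaller differences stated beside the second Serpina3f probe and Serpina3m, and also a smaller one for the second Serpina3i probe. Serpina3g was smaller with normexp too, at 2.04 with chrysotile and 2.10 with crocidolite against saline. Serpina3n was at 1.09 and 1.36. Leaving the second Serpina3i probe out, chosen after seeing the data, kept the count at 0 of 7 in all 6 comparisons.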

Other observations

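The clade B serpins closest to Serpinb6, intracellular inhibitors encoded on another chromosome, were measured on all 8 arrays. Serpinb6c differed from saline by a log2 of 0.74 with chrysotile, 0.67 with crocidolite and 0.22 with amosite (SE 0.19). Serpinb6a stood at 0.45, 0.41 and 0.04 (SE 0.22), Serpinb6d at 0.62, 0.49 and 0.19 (SE 0.34), and Serpinb6b at 0.18, 0.36 and 0.21 (SE 0.21). Serpinb6e ran the other way, at -0.15, -0.35 and -0.42 (SE 0.58). Serpinh1, the collagen chaperone, was at 0.10, 0.25 and -0.08 (SE 0.13). In the limma fit 0 of these genes passed an adjusted p of 0.05. They are copies of one another, and binding of a probe to a related transcript was not tested. In the acute phase list, the complement gene Cfb stood at 1.30, 1.55 and -0.08 (SE 0.69) and the metalloreductase gene Steap4 at 1.32, 1.68 and 0.08 (SE 0.52).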
